A study of Mus musculus with 6 samples.

Results

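Bile salt transporters and the FXR-SHP receptor pair that controls them were represented by 10 genes, namely Abcb11, Abcb4, Abcc2, Abcc3, Abcc4, Slc10a1, Slco1b2, Slc51b, Nr1h4 and Nr0b2. They were chosen by name, with earlier results of these data known. Every probe set whose platform gene symbol is exactly one of these was taken, which gave 15 of 45101 probe sets and 10 of 18193 genes. The probe sets were read on short oligonucleotide arrays of mouse liver RNA, with 3 arrays of SRC-2 null females and 3 of wild-type females. Each animal, null or wild-type, had a C57 background, was ovariectomized at 6 weeks of age and was killed under Avertin anaesthesia 2 weeks later. SRC-2, the product of Ncoa2, is a p160 coactivator of nuclear receptors, and the comparison asks which liver transcripts differ without it. The labels do not describe the deleted part of the gene or the animals' feeding state, and they do not say that the arrays of a genotype came from separate animals. The p-values therefore rest on a spread between arrays that may be technical. The values are log2 expression values made with robust multi-array average (RMA), in which a difference of 1 is a 2-fold difference, and they cannot be compared between probe sets.

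Bile salts are made from cholesterol in hepatocytes and cross 2 faces of the cell. They are taken up from portal blood over the sinusoidal face by NTCP, the product of Slc10a1, and by the organic anion transporter encoded by Slco1b2, and are pumped into the canaliculus by the bile salt export pump, the product of Abcb11. Bile salts bind FXR, the product of Nr1h4, which pairs with a retinoid X receptor, often on inverted repeats of a receptor half-site with 1 base between them, and in mouse liver activates Abcb11 and Nr0b2. Nr0b2 encodes SHP, an orphan receptor without a DNA-binding domain that represses other receptors, among them LRH-1 on bile acid synthesis genes. Abcb11 is a reported SRC-2 target, so its direction here is not an independent observation.

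The stretch before the transcription start is shown for 3 genes on which the values below turn: Abcb11 and Nr0b2, whose transcripts were lower by a like amount, and Slco1b2, which carries a similar inverted repeat. Sequences are from RefSeq (GRCm38.p6), the 250 bases before the annotated start, 5′ to 3′ on the gene's own strand. They lie at chr2:69342617-69342866 on the minus strand for Abcb11, at chr6:141629268-141629517 on the plus strand for Slco1b2 and at chr4:133553126-133553375 on the plus strand for Nr0b2. Capitals mark a match to the inverted repeat AGGTCANTGACCT with at most 1 mismatch.
Abcb11: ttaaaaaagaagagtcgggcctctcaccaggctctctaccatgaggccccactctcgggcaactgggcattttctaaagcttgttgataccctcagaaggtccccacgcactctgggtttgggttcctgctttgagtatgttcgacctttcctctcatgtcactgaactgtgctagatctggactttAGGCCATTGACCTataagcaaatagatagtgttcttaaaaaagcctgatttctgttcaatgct
Slco1b2: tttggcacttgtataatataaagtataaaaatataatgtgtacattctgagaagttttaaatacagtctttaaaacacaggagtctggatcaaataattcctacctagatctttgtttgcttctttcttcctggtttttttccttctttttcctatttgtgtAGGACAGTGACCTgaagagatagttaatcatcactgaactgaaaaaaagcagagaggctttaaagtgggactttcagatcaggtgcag
Nr0b2: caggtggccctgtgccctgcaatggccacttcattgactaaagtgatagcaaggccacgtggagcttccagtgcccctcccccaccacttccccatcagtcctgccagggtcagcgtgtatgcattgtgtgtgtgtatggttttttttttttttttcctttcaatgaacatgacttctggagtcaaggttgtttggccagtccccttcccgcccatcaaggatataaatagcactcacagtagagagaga

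The match in Abcb11, AGGCCATTGACCT, spans positions -63 to -51, where -1 is the last base before the start, and has the substitution T4C, counted from 1 at the 5′ end of the searched motif. The match in Slco1b2, AGGACAGTGACCT, spans -88 to -76 with T4A. Both strands were searched. The motif is rare in such windows, with 26 of 32851 RefSeq promoters holding a match (0.0791%). The half-site AGGTCA lies inside the inverted repeat and is common, in 14.0% of promoters, and the windows of Abcb11, Abcc2, Slc10a1, Slco1b2, Slc51b and Nr1h4 held it. TCAAGGTCA, a fixed form of the site bound by LRH-1, with at most 1 mismatch (6.35% of promoters), was in no searched window of a member. Nor was the direct repeat AGGTCANAGGTCA with at most 1 mismatch (0.484%). Looser forms of these sites were not searched, so such sites can be present. The motifs were chosen with the sequences known, and 11 promoter entries of 9 members were searched. A match is a description of letters, and Nr0b2, which had none in this window, can carry sites elsewhere.

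In SRC-2 null liver 3 of the 10 genes were lower and none was higher: Abcb11 by 1.88-fold, Nr0b2 by 1.93-fold and Abcb4, the phosphatidylcholine translocator of the canaliculus, by 1.27-fold. The remaining 7 genes were not called, among them the FXR gene Nr1h4. A gene was called at a limma adjusted p under 0.05 (Benjamini-Hochberg) among the 11894 genes whose mean reached 4.21, the median of all probe sets, and all 10 genes lay above this value in both genotypes. By that rule 4.67% of all tested genes were called, 3.13% as lower and 1.55% as higher. The median log2 fold change was -0.09 over the 10 genes and 0.00 over all tested genes. Values on the null arrays lay wholly below those on the wild-type arrays for 5 of the 10 genes, against 12.5% of all tested genes. For none of the 10 did they lie wholly above. Separation of either kind was seen in 23.4% of all tested genes. The 10 genes were chosen with earlier results of these data known, so these shares are a description and enrichment was not tested.

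Ncoa2 was read first as the check of the genotype. Its brightest probe set had log2 values of 5.60, 5.44 and 5.86 on the null arrays, against 7.74, 7.92 and 8.53 on the wild-type arrays, so that every null array was lower than every wild-type array (log2 fold change -2.44). With the mean of all Ncoa2 probe sets the log2 fold change was -1.20, so the sets of this gene differed in size of change. Array medians lay between 4.17 and 4.24. The replicate 3 arrays of both genotypes deviated in the same direction (r = 0.52 over 11894 genes after each genotype's mean was removed). Their r with the other replicates of the other genotype ran from -0.34 to -0.27. This is no separate observation, because removing the mean makes the deviations within a genotype cancel. Of 9 hepatocyte marker genes tested none was called, with a median log2 fold change of 0.01. All 11 Kupffer cell and macrophage markers tested fell, and their mean log2 value was 7.05 to 7.15 on the null arrays against 8.24 to 8.29 on the wild-type arrays. Of other marker lists, 3 of 5 B and plasma cell genes fell (median log2 fold change -1.38), 2 of 6 cholangiocyte genes, Krt19 and Cd24a, fell (median -0.29), none of 8 endothelial genes was called (median -0.02), 1 of 8 stellate cell genes, Rgs5, rose (median -0.05) and 1 of 2 enterocyte genes, Fabp2, rose (median 0.26).

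Abcb11, the pump that sets the rate of bile salt secretion, had log2 values of 9.14, 9.13 and 9.07 on the null arrays, against 10.07, 10.06 and 9.93 on the wild-type arrays. All null arrays were lower than all wild-type arrays, and the spread within each genotype was small (9.11 ± 0.04 in null and 10.02 ± 0.08 in wild-type liver, SD, n = 3 each). The log2 fold change was -0.91 (SE 0.08, 95% interval -1.10 to -0.72, limma adjusted p = 0.000491), and 109 of the 11894 genes tested (0.916%) were lower by at least as much. Within replicate numbers 1, 2 and 3 the difference was -0.93, -0.93 and -0.87. The mean log2 value of the hepatocyte markers, 13.37 to 13.43 on null and 13.37 to 13.39 on wild-type arrays, overlapped between the genotypes. Taken singly, Cps1 and Serpina1c were higher on every null array than on every wild-type array, though neither was called, and the rest overlapped. In whole liver fewer cells of a type and less RNA per cell cannot be told apart. Whether the lower level of macrophage transcripts has a part in the lower level of Abcb11, Abcb4 or Nr0b2 was not tested.

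Abcb4 moves phosphatidylcholine into bile, where it forms mixed micelles with bile salts. Its values were 10.44, 10.45 and 10.52 on the null arrays and 10.81, 10.82 and 10.84 on the wild-type arrays, so that the groups did not overlap although the gap was small. The log2 fold change was -0.35 (SE 0.08, 95% interval -0.53 to -0.18, limma adjusted p = 0.0402), and 5.41% of tested genes were lower by at least this much. Abcb4 was not called in any of the 6 fits without an array (adjusted p from 0.0691 to 0.158) and without the filter on low values, while the log2 fold change stayed between -0.38 and -0.33. The change of Abcb11 was the larger in value: the log2 difference between the 2 genes was -1.30, -1.32 and -1.45 on null arrays against -0.73, -0.75 and -0.90 on wild-type arrays. This gap of changes, -0.56, had an exact permutation p of 0.1 (two-sided, n = 3 each), the smallest that 20 splits of 6 arrays can give, so this test cannot pass 0.05.

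Abcc2, which encodes the canalicular exporter of conjugated bilirubin and of divalent bile salts, showed no such difference. It had 8.39, 8.47 and 8.28 on the null arrays and 8.30, 8.57 and 8.43 on the wild-type arrays. The ranges overlapped, with a log2 fold change of -0.05 (95% interval -0.28 to 0.17, limma adjusted p = 0.847), an interval that does not reach the change of Abcb11. Its probe set, 1450109_s_at, is of a kind that can detect related transcripts.

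Of the receptor pair Nr0b2 fell and Nr1h4 was not called. Nr0b2 had 7.16, 7.02 and 7.26 on the null arrays, against 8.02, 8.03 and 8.24 on the wild-type arrays, with every null array lower than every wild-type array. Its log2 fold change was -0.95 (SE 0.10, 95% interval -1.18 to -0.72, limma adjusted p = 0.00127), with -0.87, -1.01 and -0.98 within replicate numbers 1, 2 and 3. Nr1h4 had 9.39, 9.47 and 9.35 on the null arrays and 9.41, 9.46 and 9.49 on the wild-type arrays. The FXR transcript thus overlapped between the genotypes, with a log2 fold change of -0.04 (95% interval -0.23 to 0.14, limma adjusted p = 0.837). The change of Nr0b2 minus that of Nr1h4 was -0.91 on the log2 scale (exact permutation p = 0.1, two-sided, n = 3 each, the smallest possible). The changes of Abcb11 and Nr0b2 differed from each other by 0.04 (exact permutation p = 0.7, two-sided, n = 3 each).

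**Figure D1:**
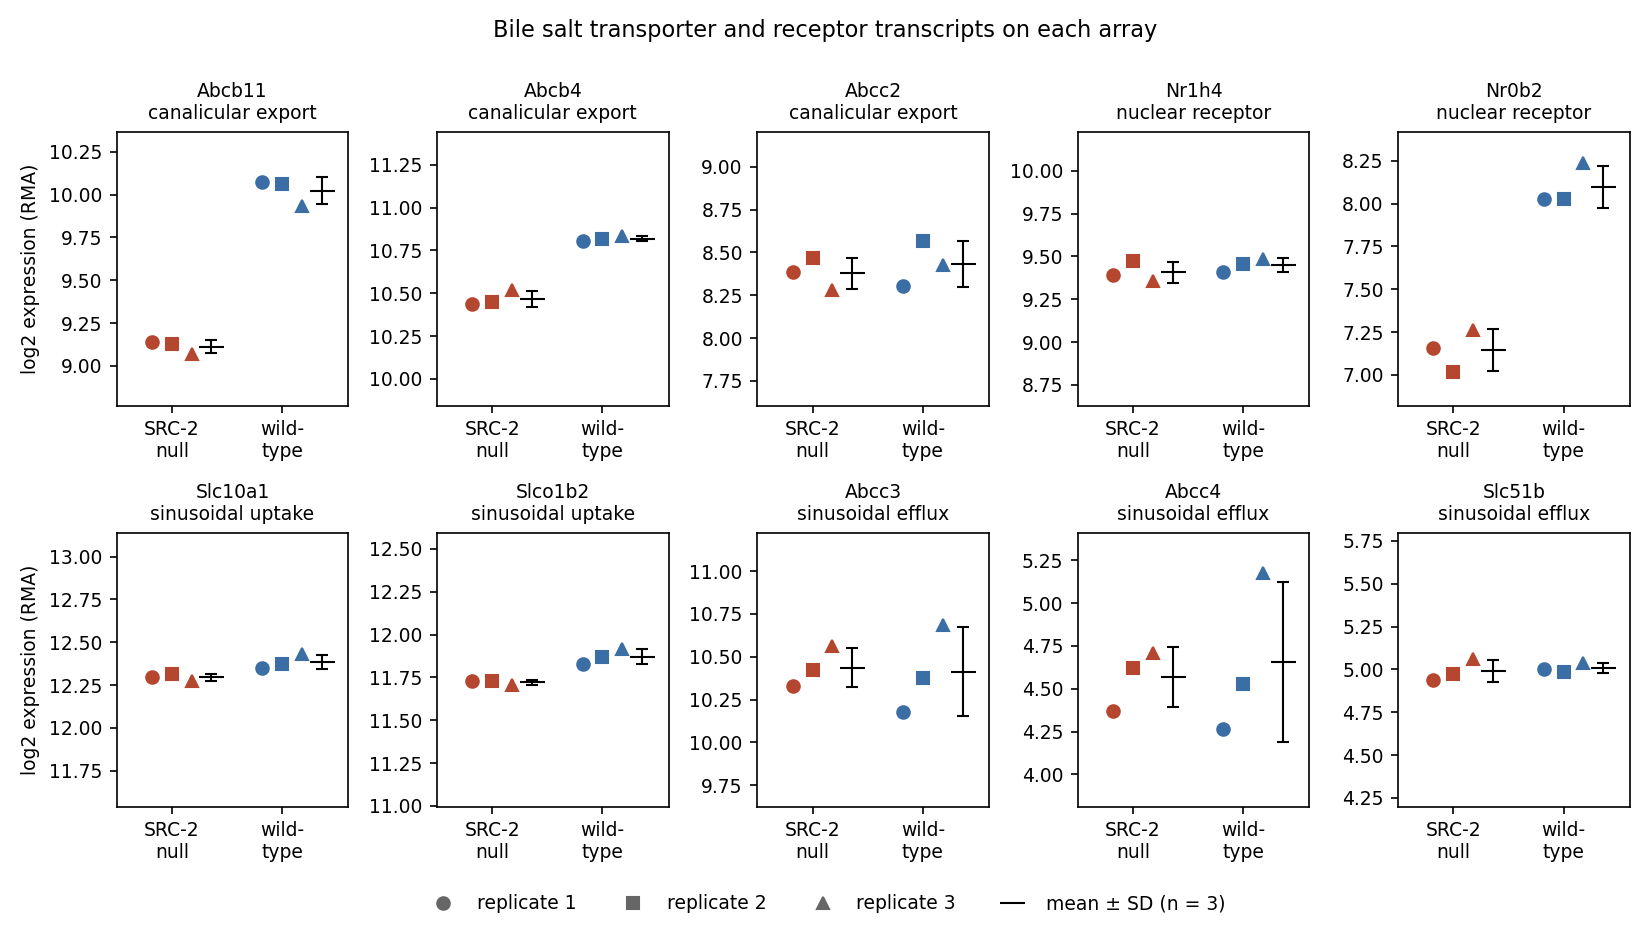
Log2 expression of the 10 genes on each array, brightest probe set per gene, with SRC-2 null left of wild-type, a symbol for each replicate number and the mean ± SD (n = 3) beside the points. Every panel spans the same log2 range, and the null points lie wholly below the wild-type points by a wide gap for Abcb11 and Nr0b2 and by a small one for Abcb4, Slc10a1 and Slco1b2.

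Neither of the 2 sinusoidal uptake carriers among the 10 genes passed the test. Slc10a1, the sodium-dependent bile salt carrier, had 12.30, 12.32 and 12.27 on the null arrays and 12.35, 12.37 and 12.43 on the wild-type arrays. The groups did not overlap, but the log2 fold change was only -0.09 (95% interval -0.26 to 0.09, limma adjusted p = 0.631). Its other probe set, 1450261_a_at, had 11.86, 11.69 and 11.44 on null and 11.73, 11.77 and 11.58 on wild-type arrays, which overlapped (log2 fold change -0.03).

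Slco1b2, a sodium-independent carrier of bile salts and other organic anions, had 11.73, 11.73 and 11.71 on the null arrays, against 11.83, 11.87 and 11.91 on the wild-type arrays, for its brightest probe set. The groups did not overlap, and the log2 fold change was -0.15 (95% interval -0.32 to 0.02, limma adjusted p = 0.373). The interval of this change stops short of that of Abcb11. Slco1b2 is the gene whose upstream sequence carries the repeat AGGACAGTGACCT shown above. Whether the repeats have a part in the change of either gene was not tested. The set 1427826_a_at had 10.38, 10.27 and 8.47 on null and 10.45, 10.31 and 9.13 on wild-type arrays, and 1452494_s_at had 11.49, 11.57 and 10.92 on null and 11.69, 11.58 and 11.16 on wild-type arrays. In both sets the replicate 3 arrays of both genotypes were the lowest, whereas the brightest set showed no such drop. The other 2 sets, 1427825_at and 1452569_at, had means below 4.21. None of the 5 sets was called when each set was tested by itself.

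Genes of sinusoidal efflux, the route back to blood that is induced in cholestasis, showed no called change. Abcc3, an exporter of glucuronides and bile salts, had 10.33, 10.42 and 10.56 on the null arrays and 10.17, 10.38 and 10.69 on the wild-type arrays. The null values lay inside the wild-type range, and the log2 fold change was 0.02 (95% interval -0.29 to 0.34, limma adjusted p = 0.959). Abcc4, which exports bile salts together with glutathione, was dim, with 4.37, 4.62 and 4.71 on the null arrays and 4.27, 4.53 and 5.17 on the wild-type arrays. Its interval was the widest of the 10 (log2 fold change -0.09, 95% interval -0.58 to 0.40, limma adjusted p = 0.889). For Abcc3 and Abcc4 alike, the replicate 3 array had the highest value in each genotype. Without those 2 arrays the log2 fold change of Abcc4 was 0.10 and that of Abcc3 was 0.10, neither called.

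Slc51b encodes the beta subunit of the organic solute transporter, an FXR-responsive efflux carrier that is prominent in ileum. Slc51b was dim, with 4.94, 4.97 and 5.06 on the null arrays and 5.004, 4.98 and 5.04 on the wild-type arrays. These values overlapped (log2 fold change -0.02, 95% interval -0.20 to 0.16, limma adjusted p = 0.945). Of the Y-linked genes, which show background in females, Sry had means of 6.38 in null and 6.49 in wild-type liver, and 4 others lay below the filter. Whether the Slc51b values lie above background was not tested. Its partner gene Slc51a had means of 3.30 in null and 3.34 in wild-type liver and lay below the filter.

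When all 34945 probe sets of a single gene were fitted with no filter, 2 of the 15 probe sets were called, those of Abcb11 (limma adjusted p = 0.00192) and Nr0b2 (limma adjusted p = 0.00391), where 1.24% of all these probe sets were called. The probe set of Abcb4 was not called in that fit (limma adjusted p = 0.137). None of the 10 genes lies on chromosome 1, which carries Ncoa2.

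**Figure D2:**
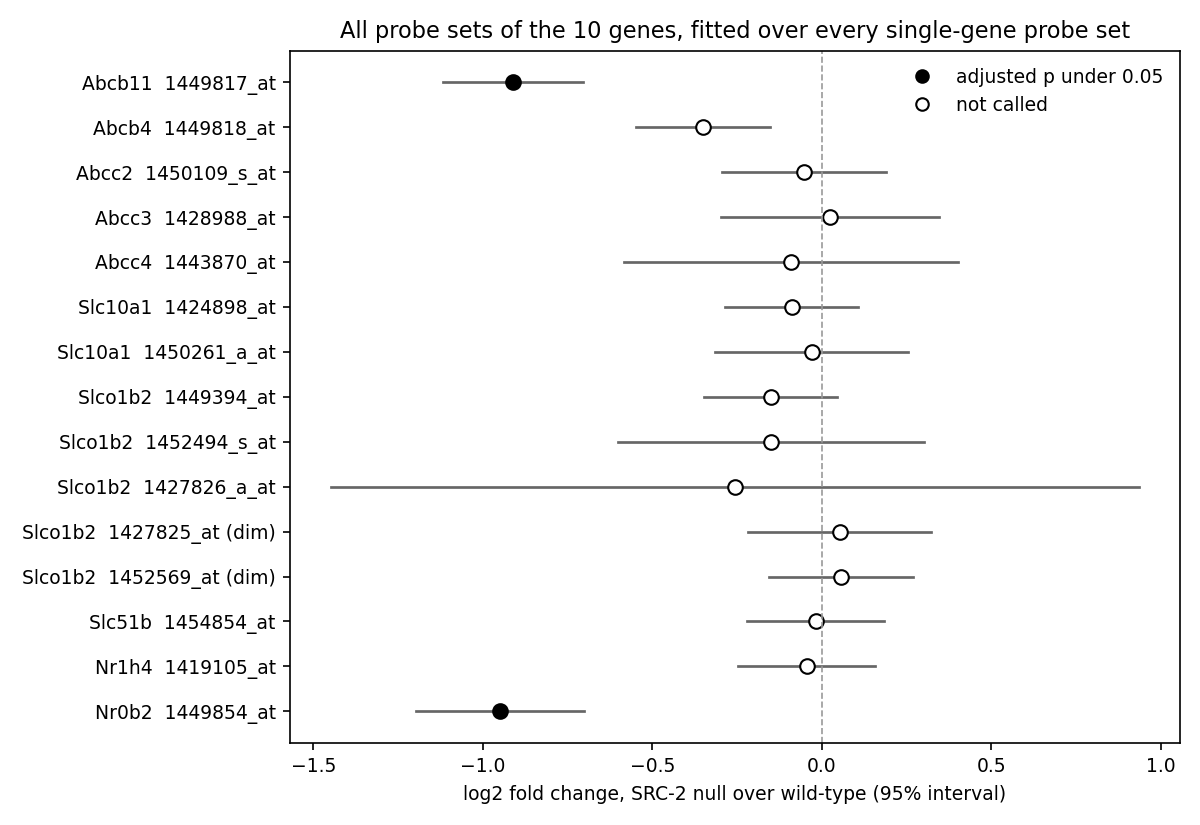
Log2 fold change, SRC-2 null over wild-type, of the 15 probe sets with 95% intervals from limma, filled where the adjusted p over 34945 probe sets was under 0.05; dim marks the 2 sets below 4.21. Abcb11 and Nr0b2 are the 2 filled points, and 12 of the 15 sets lie within 0.3 of 0.

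Of 101 other genes of the pathway in 8 lists, 87 were tested, and 4 were higher and 9 lower in null liver (14.9%, against 4.67% of all tested genes). The lists were chosen with earlier results of these data known, so this share is a description and enrichment was not tested. Other genes of the canalicular membrane moved in both directions. Of 8 tested, 3 fell and 1 rose, and the median log2 fold change was -0.11. Aqp8, a water channel of the canaliculus and of intracellular vesicles, fell 2.45-fold, with 5.91, 5.82 and 6.10 on null against 7.35, 7.14 and 7.24 on wild-type arrays (limma adjusted p = 0.000278). Abcg5 and Abcg8, which pair to form the biliary sterol exporter, fell 1.69-fold and 1.63-fold. Abcg2, an exporter of urate, porphyrins and drugs, rose 1.51-fold, with 8.80, 8.68 and 8.66 on null against 8.01, 8.13 and 8.20 on wild-type arrays (limma adjusted p = 0.00724). Atp8b1, a flippase that protects the canalicular membrane, was not called at a log2 fold change of 0.26.

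Among 5 other sinusoidal organic anion transporters 1 fell and 1 rose. Slc22a7, the carrier OAT2, fell 1.98-fold, with 5.43, 5.40 and 5.63 on null against 6.34, 6.41 and 6.66 on wild-type arrays (limma adjusted p = 0.00177). Slco1a4, a carrier of bile salts and digoxin, rose 1.28-fold (limma adjusted p = 0.0483) and was not called in any of the 6 fits without an array. Slco1a1, Slco2b1 and Abcc6 were not called. Of 10 tethering and trafficking genes 1 was called: Msn, which encodes the membrane linker moesin and is expressed mostly outside hepatocytes, fell 1.35-fold (limma adjusted p = 0.0370), and it lost its call in 5 of the 6 fits without an array. All 11 macrophage markers tested were lower too, and whether the change of Msn is related to theirs was not tested. Ezr and Rdx, its relatives, of which radixin anchors canalicular transporters, had log2 fold changes of -0.11 and -0.06 and were not called.

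None of 14 nuclear receptors and partner factors that act on transporter genes was called, with a median log2 fold change of -0.09 and a range of -0.54 to 0.36. Some of them are named here. The retinoid X receptor gene Rxra, the FXR partner, had -0.01, and Hnf4a and the LRH-1 gene Nr5a2 had -0.06 and -0.11. Cebpb had the lowest value, -0.54, with a limma adjusted p of 0.153, and Nr1i2 had -0.29 (limma adjusted p = 0.0802). For Cebpb, Nr1i2, Ahr (-0.27) and Ppara (-0.16) every null array was lower than every wild-type array. For Rarb (0.36) every null array was higher. Either kind of separation was seen in 23.4% of all tested genes. None of 10 coregulators of FXR passed, among them Ncoa1 and Ncoa3 and Ppargc1a, and the range was -0.28 to 0.18. Ncoa1, Crebbp and Kmt2c were lower on every null array than on every wild-type array. None of 6 genes of FGF15 and bile acid receptor signalling passed. The receptor gene Fgfr4 and its coreceptor gene Klb, which relay the intestinal signal that represses bile acid synthesis, had -0.32 and -0.36 (limma adjusted p = 0.0936 and 0.0815). Both were lower on every null array than on every wild-type array.

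Of 18 genes of bile acid synthesis and conjugation 3 fell and 1 rose, with a median log2 fold change of -0.02. Cyp2c70, which makes the muricholic acids of rodents, fell 3.97-fold, with 9.81, 9.75 and 9.65 on null against 11.76, 11.77 and 11.63 on wild-type arrays (limma adjusted p = 9.64e-06). Cyp27a1, the sterol hydroxylase that starts the alternative pathway, fell 1.53-fold (log2 fold change -0.61, limma adjusted p = 0.00316). With the mean of its 2 probe sets, of which the second had means of 2.36 in null and 2.52 in wild-type liver, the log2 fold change of Cyp27a1 was -0.39 (limma adjusted p = 0.0298). Akr1c6, a hydroxysteroid dehydrogenase, fell 1.35-fold (limma adjusted p = 0.0169) but lost its call in 5 of the 6 fits without an array. Cyp8b1, the sterol hydroxylase that directs synthesis to cholic acid, rose 1.58-fold, with 11.36, 11.56 and 11.43 on null against 10.79, 10.83 and 10.75 on wild-type arrays (limma adjusted p = 0.00343). Cyp7a1, the rate-limiting enzyme, was not called at a log2 fold change of 0.16 (95% interval -0.05 to 0.36, limma adjusted p = 0.427). Its values were higher on every null array than on every wild-type array, where 23.4% of all tested genes separated in either direction. The conjugating genes Baat and Slc27a5 had log2 fold changes of 0.04 and -0.03 and were not called.

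Of 16 other genes known as FXR targets in liver 1 rose and 1 fell, and the median log2 fold change was -0.02. The list was not divided by whether FXR raises or lowers a gene, so its median does not measure FXR activity. Apoc2, the cofactor of lipoprotein lipase, rose 1.39-fold and Pltp, a phospholipid transfer protein, fell 1.42-fold (limma adjusted p = 0.0174 and 0.0148). Apoc2 lost its call in 4 and Pltp in 3 of the 6 fits without an array. Log2 fold changes in this list ran from -0.60 to 0.48. The lowest was that of Osgin1, a growth inhibitor gene, which had 7.44, 7.58 and 7.74 on null against 8.01, 8.07 and 8.49 on wild-type arrays. The groups did not overlap, but Osgin1 was not called (limma adjusted p = 0.0555). The fibrinogen genes Fga, Fgb and Fgg had log2 fold changes of -0.06, -0.12 and -0.13, and Sdc1, a proteoglycan of the sinusoidal face, had 0.11, none of them called. Of these only Fgg did not overlap between the genotypes.

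**Figure D3:**
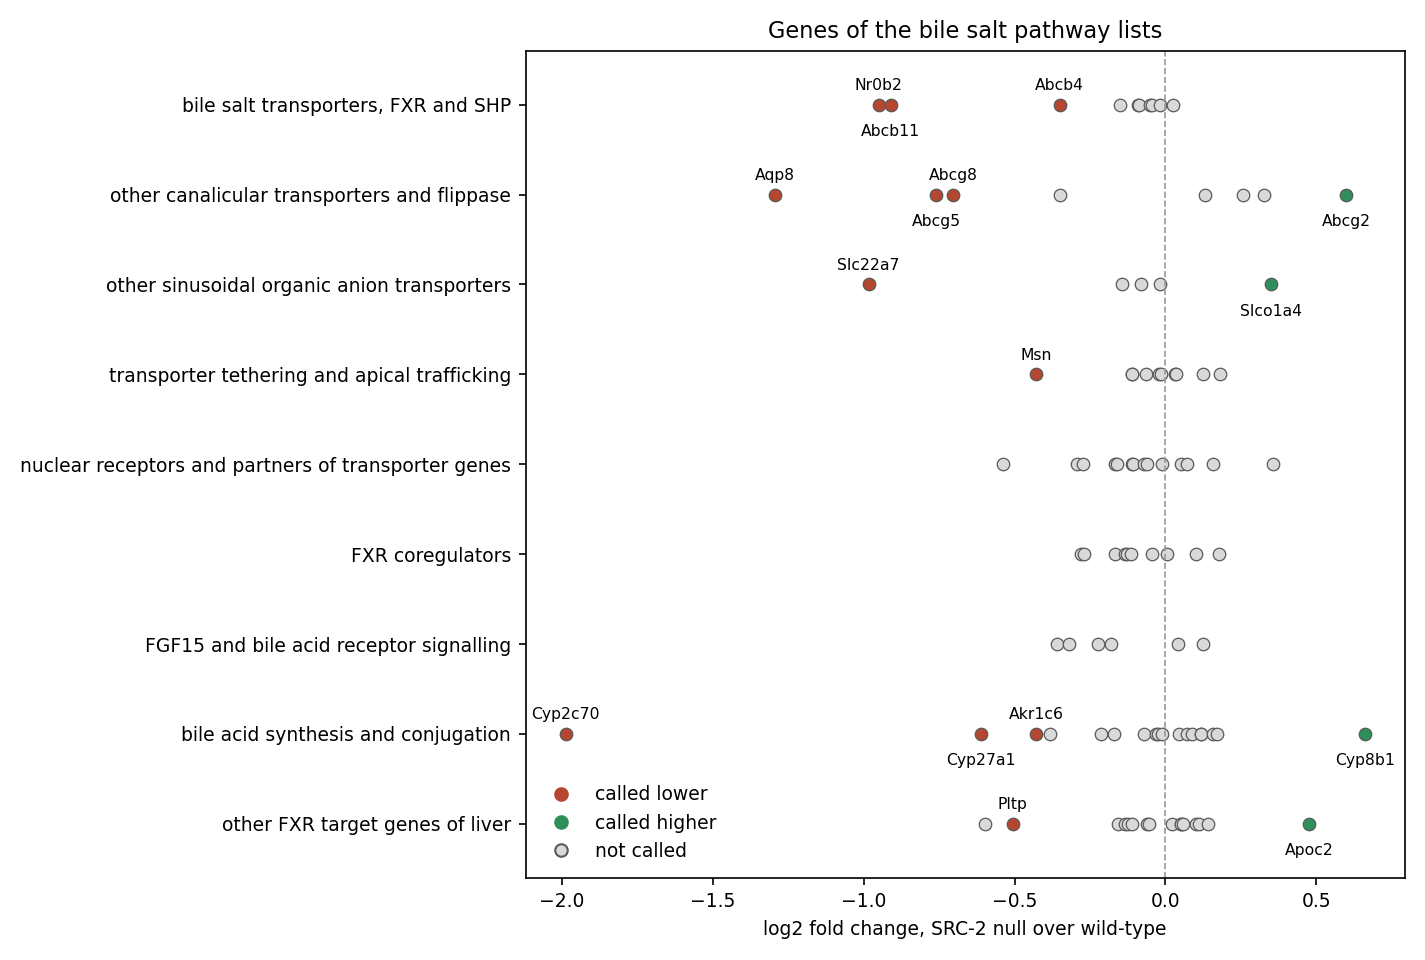
Log2 fold change, SRC-2 null over wild-type, of each tested gene in the 10-gene set (top row) and in 8 pathway lists, red where called lower, green where called higher and grey where not called. Calls lie in the rows of the transporters, bile acid synthesis, trafficking and FXR targets, and the rows of nuclear receptors, FXR coregulators and FGF15 signalling hold none.

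Over the 6 arrays, the 5 tested genes with values most like those of Abcb11 by Pearson's r were Cyp27a1, Fdps, Atp1b3, G6pc and Cyp2c70, and the 5 most like Nr0b2 were Slc23a2, Igha, Afm, Saa4 and Itgal (r of 0.998 to 0.999 in all 10 cases). This is a description with no test: the arrays fall in 2 groups by genotype, so any gene with a tight fall ranks high, and 246 genes (2.07%) had an r of 0.95 or more with Abcb11 and 328 (2.76%) with Nr0b2. Each of these 10 genes was itself called lower. Igha encodes an immunoglobulin chain and Itgal a leukocyte integrin. Whether their fall is related to that of the B cell and macrophage markers was not tested.

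Abcb11 and Nr0b2 kept their calls under all 13 alternatives of filter, probe set, scaling, variance model, block and arrays. The log2 fold change of Abcb11 lay between -0.96 and -0.89 and that of Nr0b2 between -1.01 and -0.88. Abcb4 kept its call under 4 of 13.

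**Figure D4:**
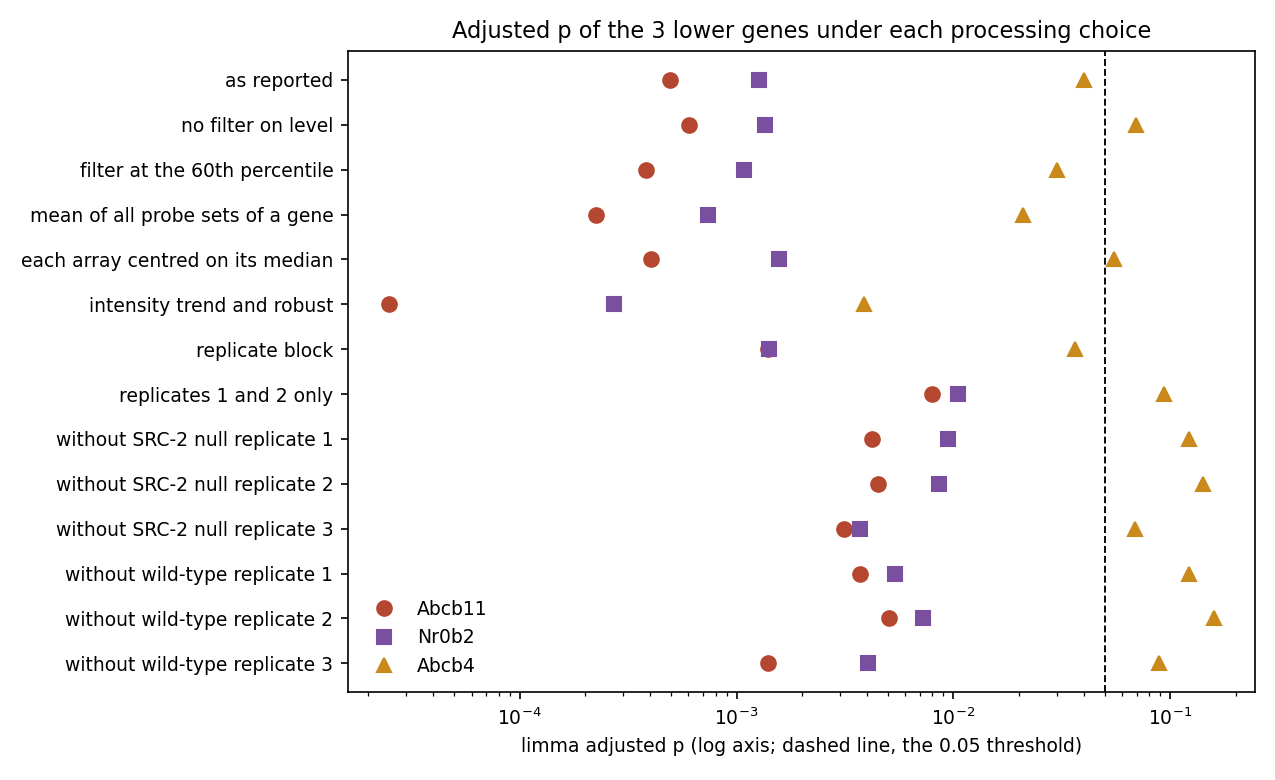
Limma adjusted p (log axis) of the 3 lower genes as reported and under 13 alternatives, with the threshold of 0.05 as a dashed line. Abcb11 and Nr0b2 lie left of the line in each row, and Abcb4 crosses it in 9 of the 13.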

How the data were processed

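The authors deposited log2 expression values of 45101 probe sets, made with RMA per the submitters' processing notes. Neither its version nor the chip description is given in the sources used here. RMA corrects background, normalizes by quantiles and pools the probes of a set, and it compresses folds of dim sets. Gene names came from the platform annotation and can be out of date. A single symbol was listed for 34945 probe sets, several for 932 and none for 9160, and 64 were controls. The symbols of all 15 probe sets of the 10 genes matched RefSeq (GRCm38.p6) by gene number.

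The brightest probe set per gene was kept and genes with a mean under 4.21 were left out. A limma 3.58.1 model (R 4.3.3) held genotype alone, its moderated test was two-sided, and p-values were adjusted over 11894 genes. Exact permutation tests ran over 20 splits. Figures used matplotlib 3.10.9 in Python 3.11.15. The fit was tested on simulated data with independent noise on each array, which lack the shared deviation of the replicate 3 arrays. No pair of arrays held identical values. The number of arrays limits the precision.

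The replicate 3 arrays of both genotypes deviated together, with r of 0.52 across 11894 genes. For replicates 1 and 2 the r of same-numbered arrays, 0.18 and 0.20, was like that across numbers, 0.17 and 0.21. These values show no pairing of replicates 1 and 2 by number. Removing each genotype's mean makes its deviations cancel, so these r depend on one another. The likeness of the replicate 3 arrays comes from the data, not the labels. The members, gene lists and motifs were chosen with earlier results of these data known. The genes named were the 10 members, Ncoa2, up to 6 called genes per pathway list and 5 each by likeness to Abcb11 and to Nr0b2. Genes named beside these were picked with their values in view.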

Additional observations from a re-analysis of the deposited data

How the results depend on the processing

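Of the 10 genes, 3 were called in the fit as reported, 2 when each probe set was tested by itself, and 2 whichever array was left out. The log2 fold change of Abcb4 was no longer called with no filter on level (-0.35, adjusted p = 0.0693), with each array centred on its median (-0.36, adjusted p = 0.0550) and in replicates 1 and 2 only (-0.37, adjusted p = 0.0936), and ran from -0.38 to -0.33 without each array in turn. The sign of genes that were never called changed: without each array in turn Abcc2 ran from -0.118 to 0.0152, Abcc3 from -0.0946 to 0.162, Abcc4 from -0.28 to 0.17 and Slc51b from -0.0539 to 0.0083, and Abcc4 had 0.10 in replicates 1 and 2 only. With a replicate block the 3 calls held, and 307 genes were higher against 184 without it. In replicates 1 and 2 only, 329 genes were changed (556 as reported), 95 higher and 234 lower, and 8 of 87 pathway genes were called (13 as reported). Without each array in turn, 275 to 438 genes were changed, 65 to 174 higher and 210 to 315 lower, and 8 to 11 pathway genes were called. These fits held fewer arrays; otherwise the cause was not tested. The block changed no other call among the 10 genes. When a gene's probe sets were averaged, the log2 fold change of Ncoa2 was -1.20 (-2.44 as reported) and that of Cyp27a1 was -0.39 (-0.61 as reported), both still called.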

Other observations

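Of the 26 genes whose upstream 250 bases hold the inverted repeat AGGTCANTGACCT with at most 1 mismatch, 9 were tested and 3 were called, all lower in SRC-2 null liver, against 4.67% of all tested genes. Beside Abcb11 these were Rdh9, a retinol dehydrogenase family gene, with means of 8.69 in null and 10.24 in wild-type liver (log2 fold change -1.56, limma adjusted p = 4.89e-05), and Saa4, a serum amyloid A gene, with 10.47 in null and 11.15 in wild-type liver (log2 fold change -0.68, limma adjusted p = 0.00315). The other 6, Slco1b2, Ms4a15, Nbr1, Rarg, Steap3 and Tbc1d14, had log2 fold changes between -0.15 and 0.19 and were not called. All 9 are given here with their values in view, and no test of the group was made. The motif was chosen with the sequences and earlier results of these data known. Abcb11, 1 of the 3, is a reported SRC-2 target. The share called is therefore a description only.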
